A study of Mus musculus with 9 samples.

Results

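The genes described here are the nuclear genes of the mitochondrial respiratory chain, taken by symbol as every gene named Nduf, Sdha to Sdhd, Uqcr, Cox4 to Cox8 or Atp5. The deposited table holds 97 of them among 18474 protein-coding genes: 49 of complex I, 4 of complex II, 8 of complex III, 19 of complex IV and 17 of complex V. The choice uses symbols and no measured value. Ndufa4 and its paralogue Ndufa4l2 carry a complex I symbol but were placed with complex IV, where the Ndufa4 protein is known to sit. The 8 Ndufaf genes are assembly factors of complex I, which help to build the enzyme and are not part of it when complete.

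RNA came from the hippocampus of wild-type mice in 3 groups of 3 libraries, each sampled 30 days after treatment: KA+NBP mice, which had both agents, KA mice, which were injected with KA alone, and sham mice with a control treatment. KA is taken to be kainic acid, which provokes seizures by activating glutamate receptors, and NBP to be butylphthalide, named in the title. Mice were allocated at random and each library stands for 1 mouse, while age, sex and dose are not given in the sources used here. All values are from whole tissue, in which fewer cells of a type and less RNA per cell cannot be told apart.

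The respiratory chain passes electrons from NADH (through complex I) and succinate (through complex II) to ubiquinone, on to complex III and cytochrome c, and then to oxygen at complex IV. Complexes I, III and IV pump protons across the inner mitochondrial membrane, and complex V, the ATP synthase, lets them flow back to make ATP. Neurons depend heavily on this supply, and most subunits are encoded in the nucleus and imported, while a few that lie in the membrane core are encoded by mitochondrial DNA. Of those mitochondrial genes, 0 are in the table used here.

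Libraries held 15699251 to 16374637 estimated counts. The 97 genes together took 0.869 to 0.870% of the counts in KA+NBP, 0.939 to 0.959% in KA and 0.858 to 0.885% in sham. Hippocampal excitatory neuron markers (Prox1, Wfs1, Fibcd1, Camk2a and 6 others) were present in all 9 libraries, at a sum of 5060 to 7895 CPM in KA+NBP, 4600 to 5207 CPM in KA and 6936 to 7749 CPM in sham, where CPM is a count scaled to the library total, itself adjusted by TMM factors. Markers of other cell types differed between the groups as well. The 14 microglia markers summed to 513 to 1243 CPM in KA+NBP, 2808 to 2828 CPM in KA and 507 to 625 CPM in sham, the 10 astrocyte markers to 5122 to 9225 CPM, 11252 to 13756 CPM and 5154 to 5669 CPM in those groups, and the 16 pan-neuronal markers to 7914 to 9854 CPM, 6939 to 7970 CPM and 9272 to 9794 CPM in those groups. KA+NBP replicate 2 stood apart: its 9 choroid plexus and ependyma markers summed to 662 CPM against 39.9 to 66.8 CPM in the other 8 libraries, and it held the upper microglia and astrocyte values and the lower pan-neuronal value of its group. The neuronal lists did not move as one. In KA against sham, by the test described below, 6 of the 10 excitatory markers were called lower and 2, Prox1 and Bok, higher. Camk2a weighed heavily in their sum, with means of 4275 CPM in KA+NBP, 2455 CPM in KA and 4603 CPM in sham. Of the 16 pan-neuronal markers, 9 were called lower and 1, Nefm, higher. The part of these cell types in the results below was not tested.

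Levels per transcript length are given as TPM, the authors' deposited measure, averaged over the 9 libraries. Complex IV and complex V genes stood at the top: the 12 complex IV genes other than the tissue isoforms had a median of 1291 TPM, between 309 TPM for Cox7b and 2148 TPM for Cox8a, and the 17 complex V genes a median of 765 TPM, between 388 TPM for Atp5g2 and 1626 TPM for Atp5b, which encodes the catalytic beta subunit. The 8 complex III genes had a median of 357 TPM, the 38 tested complex I subunits 263.8 TPM and the 4 complex II genes 219 TPM. Complex I assembly factors were lower, with a median of 38.3 TPM over 8 genes and a range of 11.8 TPM for Ndufaf6 to 77.2 TPM for Ndufaf8. The ranges of complexes I, II and III overlap broadly, so the order of their medians says little about single genes. In each group the order of these medians, from complex IV down to the assembly factors, was the same.

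**Figure D1:**
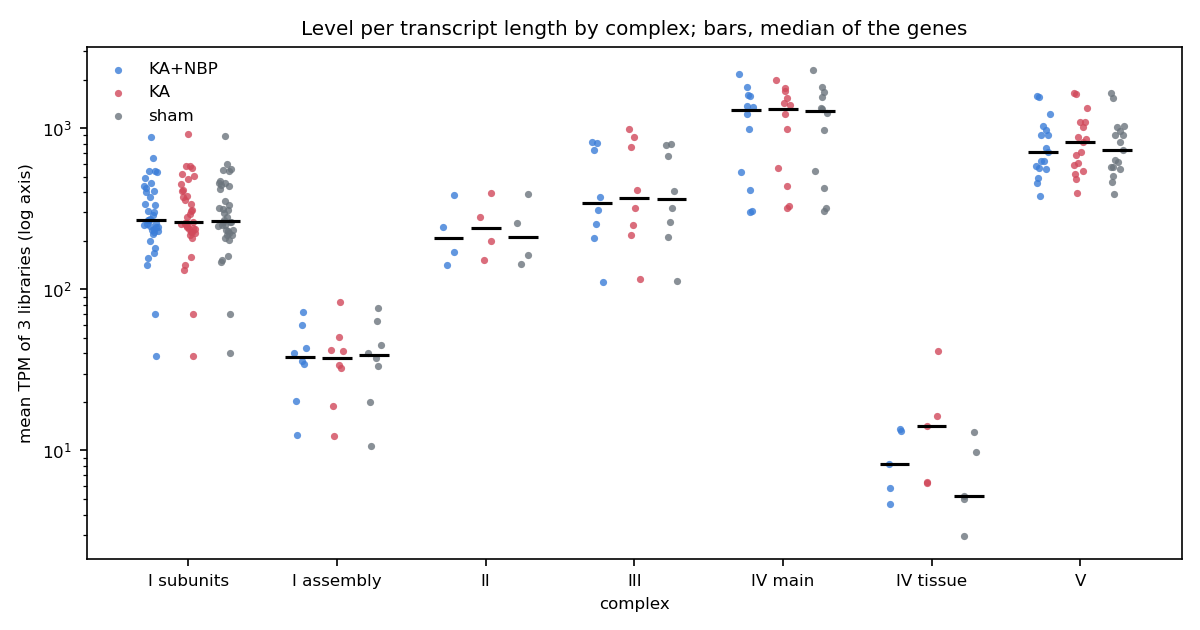
Mean TPM over the 3 libraries of each group (log axis) for each tested gene, by complex, with KA+NBP in blue, KA in red and sham in grey and black bars at the median of the genes. The main complex IV genes have the upper median in each group and the tissue isoforms of complex IV the lowest, and the tissue isoforms have medians of 8.21 TPM in KA+NBP, 14.1 TPM in KA and 5.18 TPM in sham.

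The tissue isoforms of complex IV, which replace ubiquitous subunits in muscle, lung or testis, were scarce in hippocampus. Cox7a1, the heart and skeletal muscle form, averaged 21.4 TPM, Cox6a2, also a muscle form, 14.3 TPM, Cox6b2, the testis form, 9.12 TPM and Cox4i2, the lung form, 4.67 TPM, and Ndufa4l2, the paralogue of Ndufa4, was at 5.77 TPM. Read as a share of each isoform pair in TPM, Cox7a1 made up 3.08 ± 1.20% of Cox7a1 plus Cox7a2 in KA+NBP, 8.53 ± 2.21% in KA and 2.24 ± 0.95% in sham (SD, n = 3 each). The other 6 pairs had a tissue share of 1.29% or less in each library. The membrane c ring of the ATP synthase is encoded by 3 genes for the same mature protein, and Atp5g3 supplied 52.8 to 56.0% of their summed TPM in all 9 libraries.

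The KA against sham comparison asks which of these genes differ 30 days after KA. Of the 97 genes, 92 had enough counts to be tested. The others were Ndufab1-ps, with 0 counts in each library, which allows up to 0.183 to 0.191 CPM per library by counting error alone, and Ndufb4b, Ndufs6b, Cox7b2 and Cox8b, none of which passed 7.06 counts in a library. A gene is called where its p from edgeR's quasi-likelihood test, after Benjamini-Hochberg adjustment across the 14752 genes tested, is under 0.05. In KA, 20 of 92 genes (21.7%) were called higher, against 19.0% of all tested genes, and 1 (1.09%) was called lower, against 14.6% of all tested genes. At an unadjusted p under 0.05, 28 were higher and 2 lower, beside 24.8% and 20.6% of all tested genes. The share called higher is thus near that of all genes. The share called lower is below it, but among other genes that share varied with transcript length, as given below. The median log2 fold change over the 92 genes was 0.10, a rise of 7.31%, beside 0.01 over all tested genes, and 78 values lay above 0 and 14 below. Most changes were small: 72 of 92 lay within 0.25 of 0 on the log2 scale. In 36 of 92 genes every KA library lay above every sham library, and in 5 every KA library lay below; over all tested genes these shares were 29.3% and 27.0%.

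The summed level of the 97 genes was 8350 to 8915 CPM in KA+NBP, 9215 to 9606 CPM in KA and 8592 to 9009 CPM in sham. KA and sham sums do not overlap, and neither do KA+NBP and KA sums, while KA+NBP and sham sums do. By complex, the sum in KA was 4.36% above sham for complex I, 10.8% for complex II, 9.20% for complex III, 5.82% for complex IV and 7.16% for complex V. The complex I assembly factors summed to 132 to 138 CPM in KA+NBP, 129 to 140 CPM in KA and 133 to 136 CPM in sham, with full overlap. These sums carry no test. Medians of TPM differ from these sums both in scale and in how the genes are combined. An effect of scale alone cannot be read from them. In TPM, the complex I subunits had a median of 260 in KA and 266 in sham, and the assembly factors of 37.5 and 38.95. The medians in KA and sham were 239 and 211 TPM for complex II and 366 and 363 TPM for complex III. They were 1314 and 1269 TPM for complex IV without the tissue isoforms and 818 and 735 TPM for complex V.

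**Figure D2:**
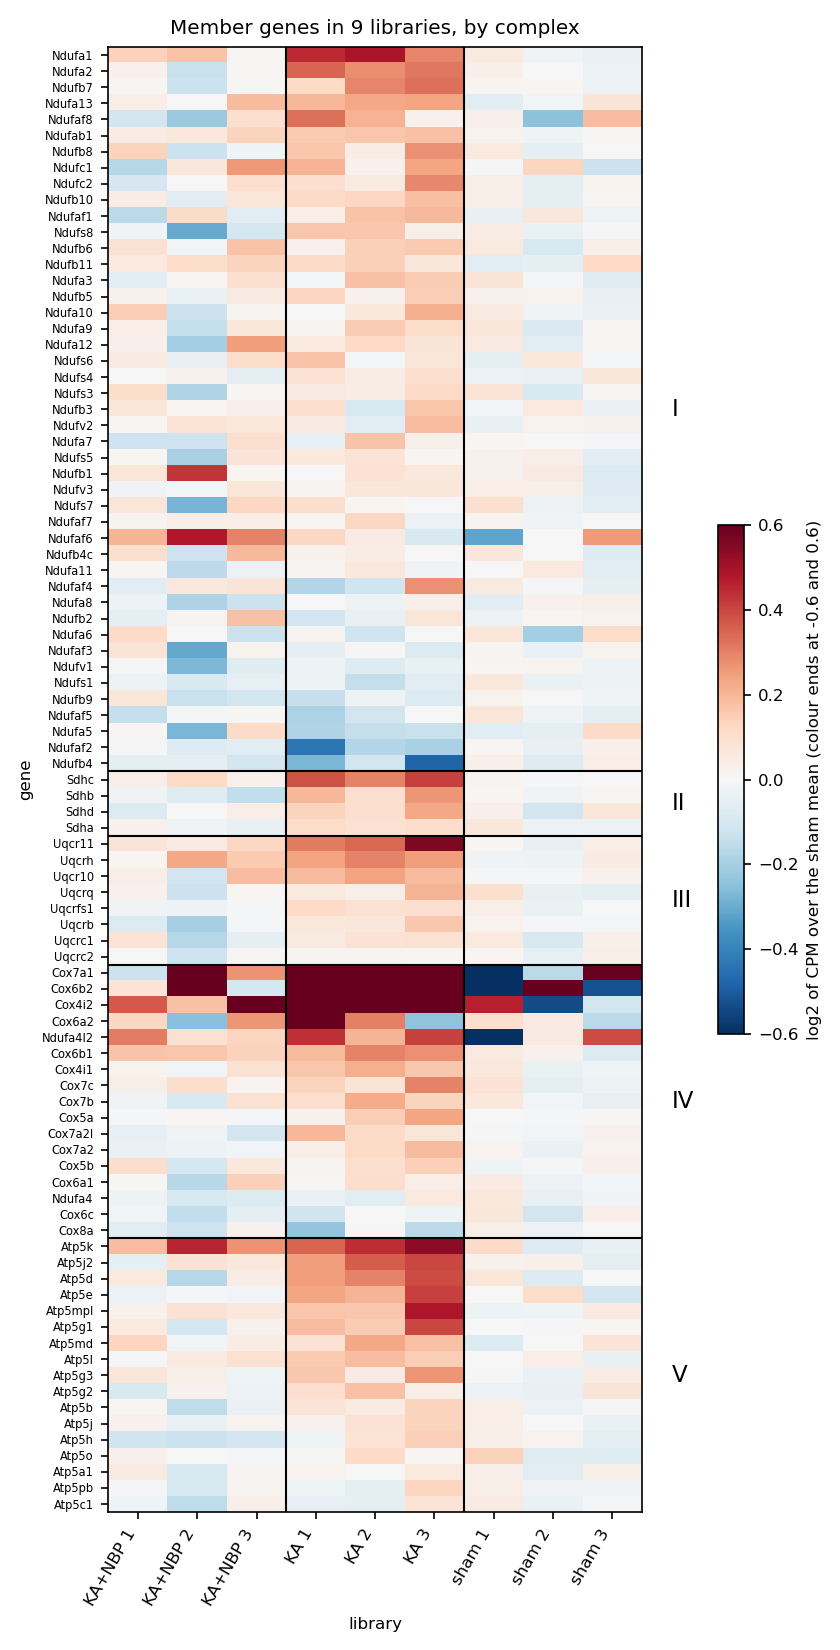
Log2 of CPM over the sham mean for the tested genes shown (rows, by complex and by the KA against sham fold change within it) in each library (columns, KA+NBP, then KA, then sham), red above and blue below the sham mean, with the colour ending at -0.6 and 0.6. KA replicate 3 holds the top value of the 9 libraries for 40 of 92 genes and KA+NBP replicate 2 the bottom value for 38.

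The number of calls depended on which libraries entered, over all tested genes as in this set. Against 20 genes called higher with all libraries, 9 were called without sham replicate 1, 10 without sham replicate 2, 8 without sham replicate 3, 13 without KA replicate 2 and 9 without KA replicate 3; 15 without KA replicate 1, 14 without KA+NBP replicate 1, 23 without KA+NBP replicate 2 and 17 without KA+NBP replicate 3. Ndufa1, Ndufa2, Sdhc, Uqcr11, Cox7a1, Atp5j2 and Atp5k were called in all 9 of these fits and in the other 8 settings tried. The other 13 called genes kept their direction in all 17 settings but lost the call in at least 1 of the 9 fits, with adjusted p of at most 0.189. Of these, Ndufab1, Ndufb7, Sdhb, Cox4i1 and Atp5l also lost it with the replicate number as a block.

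In complex I, which takes electrons from NADH, 5 of 46 genes were called higher and 1 lower. These are 10.9% and 2.17%, beside 19.0% and 14.6% of all tested genes. Of the core subunits described here, most of which carry the flavin or iron-sulphur clusters, 0 were called in KA against sham with edgeR or DESeq2. At an unadjusted p of 0.05, 0 passed. Ndufs1, the large iron-sulphur subunit, had 143, 137 and 141 CPM in KA+NBP, 143, 133 and 139 CPM in KA and 153, 142 and 143 CPM in sham (log2 fold change KA against sham -0.08 ± 0.06 SE, adjusted p = 0.317). Ndufv1, which binds NADH, had a log2 fold change of -0.05 ± 0.07 and Ndufv2, its iron-sulphur partner, 0.06 ± 0.07, with adjusted p of 0.617 and 0.552. Ndufs3, Ndufs7 and Ndufs8, of the arm that passes electrons to ubiquinone, had log2 fold changes of 0.04 to 0.12. The groups overlap for these core genes except Ndufv1, whose 3 KA libraries (134 to 138 CPM) lay below its 3 sham libraries by a small margin.

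Called complex I genes were all accessory subunits, which stabilise the enzyme without taking part in catalysis; 5 of 31 rose and 1 fell. Ndufa1, a small membrane-arm subunit needed for assembly (GRCm39 chrX:36451241-36454891), had 31.5, 32.2 and 28.9 CPM in KA+NBP, 39.0, 40.2 and 35.0 CPM in KA and 29.8, 28.2 and 27.8 CPM in sham. All KA libraries lay above the other 6, and the log2 fold change in KA against sham was 0.41 ± 0.08 (adjusted p = 0.00523), a rise of 33.1%. Ndufa2, a matrix-arm subunit, had 28.0, 25.0 and 27.6 CPM in KA+NBP, 35.0, 33.4 and 34.2 CPM in KA and 28.1, 27.5 and 26.8 CPM in sham (0.32 ± 0.07, adjusted p = 0.0085). Again KA stood above the other 6 libraries without overlap. Ndufb7, on the intermembrane-space side, rose by 0.25 ± 0.08 on the log2 scale, Ndufa13 by 0.22 ± 0.07 and Ndufab1, the mitochondrial acyl carrier protein, by 0.17 ± 0.05, with adjusted p of 0.0318, 0.0322 and 0.0429. Ndufa1, Ndufa2 and Ndufa13 each overlap a gene on the opposite strand (Rnf113a1, Tmco6 and Tssk6), as do Uqcrh, Cox4i2 and Atp5d below (Gm12854, Bcl2l1 and Cbarp). Other genes of the set do so too, among them Ndufv2 (Ankrd12), Ndufa4l2 (Shmt2), Cox6a2 (Itgad), Atp5a1 (Haus1) and Atp5j (Gabpa). Whether the counting used strand is not given in the sources used here.

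Ndufb4, a membrane-arm accessory subunit (GRCm39 chr16:37467964-37474730), was the only gene of the set called lower in KA. It had 30.9, 30.9 and 29.8 CPM in KA+NBP, 26.6, 29.7 and 23.0 CPM in KA and 32.9, 30.5 and 33.1 CPM in sham, a log2 fold change of -0.28 ± 0.09 in KA against sham (adjusted p = 0.0448). KA libraries lay below the other 6, KA replicate 2 by a narrow margin. Its counts carry fractions in all 9 libraries, since reads are shared with near-identical copies such as Ndufb4c, so its value is uncertain; Ndufb4 and Ndufb4c summed to 54.1 ± 2.11 CPM in KA+NBP, 49.3 ± 3.75 CPM in KA and 54.7 ± 1.75 CPM in sham (SD, n = 3 each). The call was kept in 2 of the 9 fits that leave out a library and was lost with the replicate number as a block.

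Of the 8 complex I assembly factors, 0 were called in KA against sham with edgeR, with log2 fold changes on both sides of 0 and a median log2 fold change of 0.02, and DESeq2 called 0. At an unadjusted p under 0.05, 1 passed. This was Ndufaf2, with 10.3, 9.84 and 9.92 CPM in KA+NBP, 7.67, 9.20 and 9.06 CPM in KA and 10.5, 10.1 and 10.6 CPM in sham (log2 fold change KA against sham -0.26 ± 0.11, adjusted p = 0.0929). Ndufaf1 stood at 0.14 ± 0.09 and Ndufaf8 at 0.19 ± 0.16, with adjusted p of 0.289 and 0.378. Of 12 further complex I assembly factors without an Nduf symbol, 1 was called: Tmem126b fell by 0.32 on the log2 scale in KA against sham (SE 0.10, adjusted p = 0.0326).

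In complex II, which oxidises succinate and also serves the citric acid cycle, 2 of 4 genes were called higher in KA. All 4 had KA libraries above all sham libraries. Over all tested genes, 19.0% were called higher and 29.3% had KA above sham without overlap. Sdhc, a membrane anchor that helps to form the quinone site (GRCm39 chr1:170956726-170978209), had 60.9, 64.6 and 60.5 CPM in KA+NBP, 77.4, 73.1 and 79.0 CPM in KA and 60.1, 58.9 and 59.3 CPM in sham. The KA values lay well above the other 6, with a log2 fold change of 0.36 ± 0.06 in KA against sham and the smallest adjusted p of the 92 genes (0.00302). Sdhb, the iron-sulphur subunit, had 82.9, 80.0 and 76.0 CPM in KA+NBP, 96.7, 89.8 and 101 CPM in KA and 84.8, 82.9 and 84.6 CPM in sham (0.19 ± 0.06, adjusted p = 0.0462). Sdhd, the other anchor, and Sdha, the flavoprotein that binds succinate, stood at 0.16 ± 0.07 and 0.10 ± 0.06, with adjusted p of 0.116 and 0.2. Of the 4 complex II assembly factors, 0 were called with edgeR or DESeq2 and 0 passed an unadjusted p of 0.05.

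In complex III, which hands electrons from ubiquinol to cytochrome c, 2 of 8 genes were called higher in KA, both small accessory subunits. That is 25%, beside 19.0% of all tested genes. Uqcr11 (GRCm39 chr10:80238831-80242655) had 55.5, 54.4 and 57.3 CPM in KA+NBP, 65.2, 66.8 and 77.4 CPM in KA and 52.9, 50.9 and 53.9 CPM in sham. KA replicate 3 was the highest, all KA libraries exceeded the other 6, and the log2 fold change in KA against sham was 0.41 ± 0.08 (adjusted p = 0.00488). Uqcrh, the hinge protein beside cytochrome c1, had 74.7, 87.1 and 82.9 CPM in KA+NBP, 87.8, 91.3 and 88.2 CPM in KA and 73.2, 72.7 and 76.9 CPM in sham (0.26 ± 0.07, adjusted p = 0.0177). Here KA+NBP replicate 2 came close to the KA values. Uqcr10 (0.21 ± 0.08, adjusted p = 0.0614) and the Rieske iron-sulphur protein Uqcrfs1 (0.10 ± 0.05, adjusted p = 0.147) were not called. The core proteins Uqcrc1 and Uqcrc2 lay at 0.08 ± 0.08 and 0.02 ± 0.06.

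Cytochrome c, the carrier between complexes III and IV, is not in the set by symbol but rose with it. Cycs had 131, 138 and 134 CPM in KA+NBP, 148, 156 and 183 CPM in KA and 130, 131 and 133 CPM in sham (log2 fold change KA against sham 0.31 ± 0.08, adjusted p = 0.018). Hccs, which attaches its haem, rose by 0.38 ± 0.12 (adjusted p = 0.042), and cytochrome c1, Cyc1, stood at 0.17 ± 0.09 (adjusted p = 0.185). KA lay above sham without overlap for Cycs and Hccs.

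In complex IV, cytochrome c oxidase, 4 of 17 genes were called higher in KA: the ubiquitous isoforms Cox4i1 and Cox6b1 and the tissue isoforms Cox7a1 and Cox6b2. This share is 23.5%, beside 19.0% of all tested genes. Cox6b1, on the intermembrane-space side, had 112, 111 and 109 CPM in KA+NBP, 113, 122 and 120 CPM in KA and 103, 101 and 93.8 CPM in sham (log2 fold change KA against sham 0.26 ± 0.06, adjusted p = 0.0117). Cox4i1, the subunit through which ATP is known to regulate the enzyme, rose by 0.18 ± 0.06 (adjusted p = 0.0429). KA did not overlap sham for either gene, and for Cox6b1 the KA+NBP libraries also lay above sham. The remaining ubiquitous subunits were not called: Cox7b, Cox7a2 and Cox6a1 had log2 fold changes of 0.15 ± 0.07, 0.12 ± 0.06 and 0.05 ± 0.08, and Cox8a and Ndufa4 of -0.13 ± 0.08 and -0.01 ± 0.06. Cox7a2l, a factor that joins complexes III and IV into supercomplexes, stood at 0.13 ± 0.06 (adjusted p = 0.108).

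The tissue isoforms held the largest changes of the set, at counts so low that 1 library weighs heavily. Cox7a1 (GRCm39 chr7:29883596-29885455) had 6, 14 and 8 counts in KA+NBP, 19, 35 and 37 counts in KA and 4, 6 and 10 counts in sham. The KA libraries stood above the other 6, and the log2 fold change in KA against sham was 2.13 ± 0.46 (adjusted p = 0.00873), a fold of 4.37. Cox6b2 (GRCm39 chr7:4754791-4756093) had 9, 26 and 8 counts in KA+NBP, 29, 26 and 24 counts in KA and 5, 15 and 6 counts in sham, with a log2 fold change of 1.55 ± 0.53 (adjusted p = 0.0485), and was not called in 6 of the 9 fits that leave out a library. KA+NBP replicate 2 matched the KA libraries for Cox6b2. Cox4i2 had 11, 10 and 20 counts in KA+NBP, 16, 19 and 26 counts in KA and 12, 6 and 8 counts in sham (1.18 ± 0.41, adjusted p = 0.052). KA lay above sham without overlap for Cox4i2 too, although it was not called. Cox6a2 and Ndufa4l2 were at 0.38 ± 0.30 and 0.35 ± 0.28, with overlapping groups.

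Markers of blood vessel cells, astrocytes and microglia moved in the same direction as these isoforms. Of 12 endothelial and mural markers, 9 were called higher in KA against sham and 0 lower. They summed to 256 to 373 CPM in KA+NBP, 407 to 450 CPM in KA and 264 to 308 CPM in sham, with none at 0 in any library. Of 10 astrocyte markers 9 and of 14 microglia markers 13 were called higher, and 0 lower. The summed fold in KA over sham was 1.53 for vessel markers, 2.32 for astrocyte markers and 4.86 for microglia markers, against 4.37 for Cox7a1, 2.92 for Cox6b2 and 2.27 for Cox4i2. The isoform folds are edgeR folds of single genes. Gfap weighed heavily in the astrocyte sum, with a mean of 4862 CPM in KA and 345 CPM in sham, and the median log2 fold change of the 10 markers was 0.90. Oligodendrocyte markers had a summed fold of 1.24, with 2 of 10 called higher and 0 lower. The part of these cells in the changes was not tested.

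Complex V had 7 of 17 genes called higher in KA: 4 of 5 membrane subunits outside the c ring, 2 of 5 of the head and central stalk, 1 of 3 of the c ring and 0 of 4 of the peripheral stalk. Its share is 41.2%, beside 19.0% of all tested genes. Among other genes that share varied with transcript length, as given below. Among the membrane subunits that tie ATP synthases into dimers, Atp5k (subunit e, GRCm39 chr5:108581112-108582265) had 31.2, 37.7 and 33.1 CPM in KA+NBP, 34.9, 37.2 and 39.8 CPM in KA and 29.7, 26.0 and 26.6 CPM in sham (log2 fold change KA against sham 0.44 ± 0.09, adjusted p = 0.00792). KA and KA+NBP overlap for this gene and both lay above sham. Atp5j2 (subunit f) had 55.9, 61.9 and 60.9 CPM in KA+NBP, 69.3, 74.9 and 76.8 CPM in KA and 59.2, 59.4 and 56.0 CPM in sham (0.34 ± 0.07, adjusted p = 0.00629). Here KA alone stood apart. Atp5mpl rose by 0.28 ± 0.09 and Atp5l (subunit g) by 0.16 ± 0.05, with adjusted p of 0.0431 and 0.0463.

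In the catalytic head and central stalk, the small subunits moved and the large ones did not pass the test. Atp5d (delta) had 162, 138 and 160 CPM in KA+NBP, 185, 191 and 204 CPM in KA and 164, 147 and 155 CPM in sham (log2 fold change KA against sham 0.31 ± 0.08, adjusted p = 0.0162), and Atp5e (epsilon) rose by 0.29 ± 0.08 (adjusted p = 0.0237). Atp5b (beta) had 1070, 956 and 1036 CPM in KA+NBP, 1124, 1101 and 1166 CPM in KA and 1094, 1038 and 1058 CPM in sham (0.09 ± 0.07, adjusted p = 0.362). KA lay above sham without overlap for all 3 genes, narrowly for Atp5b. Atp5a1 (alpha) and Atp5c1 (gamma) stood at 0.03 ± 0.07 and -0.01 ± 0.07. Of the c-ring genes, Atp5g1 rose by 0.25 ± 0.08 (adjusted p = 0.035), while Atp5g3 was at 0.16 ± 0.07 (adjusted p = 0.0955) and Atp5g2 at 0.11 ± 0.07 (adjusted p = 0.241). Of the 4 peripheral stalk genes (Atp5h, Atp5j, Atp5o and Atp5pb), 0 were called with edgeR or DESeq2 and 0 passed an unadjusted p of 0.05. Of 5 assembly factors of complex V, Tmem242 was called higher, at 0.34 ± 0.07 (adjusted p = 0.00792).

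**Figure D3:**
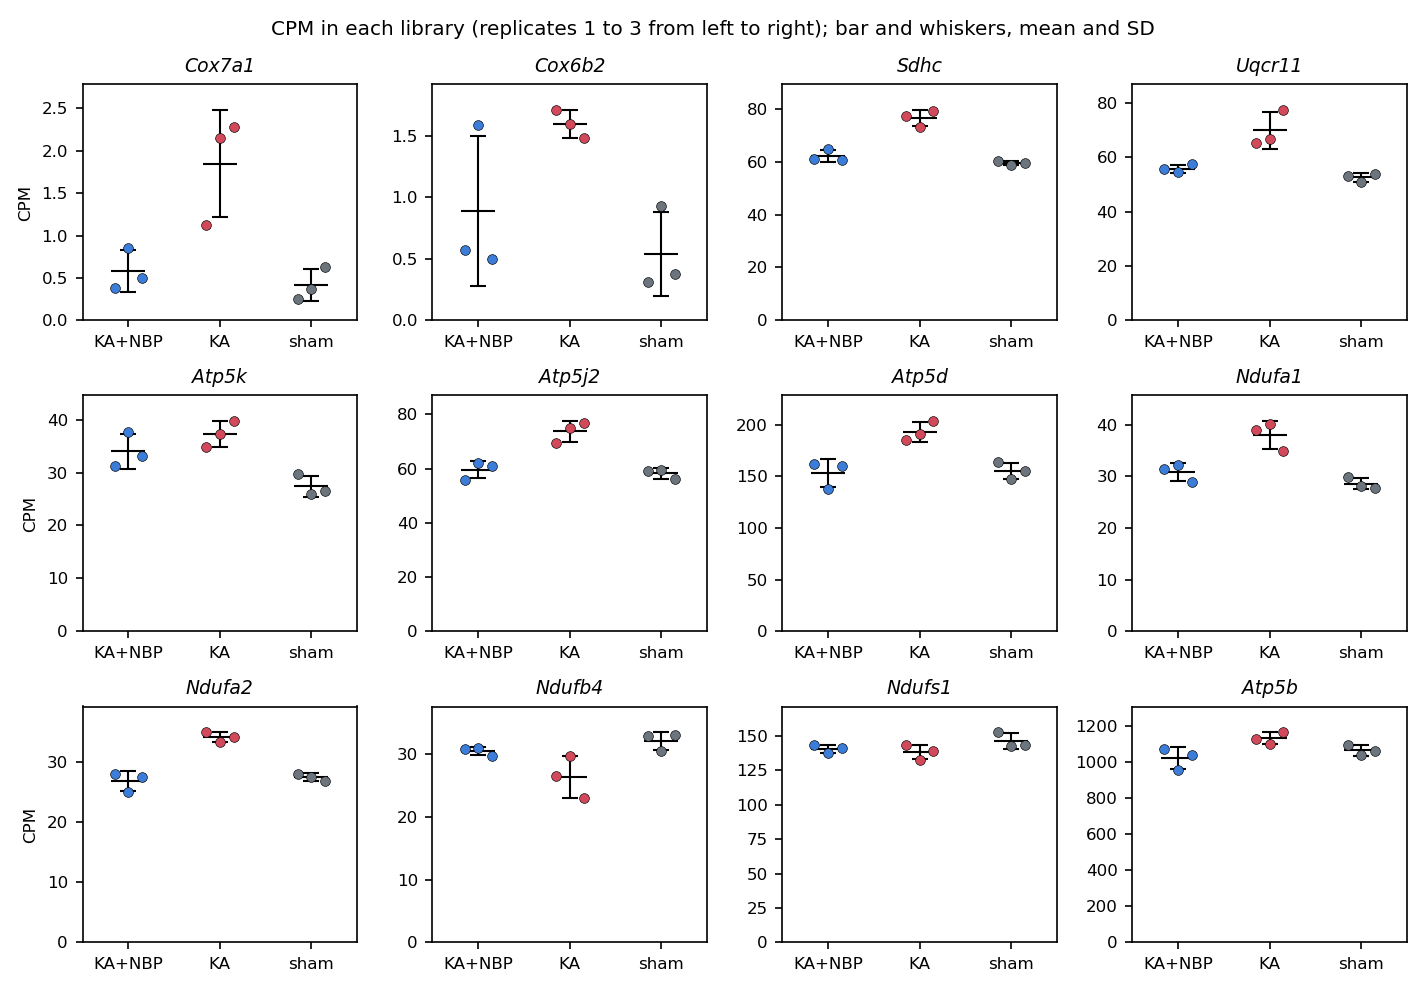
CPM in each library for 12 genes, with replicates 1 to 3 from left to right within KA+NBP (blue), KA (red) and sham (grey), and the mean with SD (n = 3). KA lies above both other groups for Cox7a1, Sdhc, Uqcr11, Atp5j2, Atp5d, Ndufa1, Ndufa2 and Atp5b and below them for Ndufb4, and KA+NBP replicate 2 reaches the KA values for Cox6b2 and Atp5k.

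Across complexes the called genes tended to be short. The effective transcript length, the stretch of transcript from which reads can start as the deposited counts and FPKM imply it, had a median of 420 bases over the 92 genes and 2807 bases over all tested genes, and 56.5% of the 92 genes but 2.64% of all tested genes were under 500 bases. Short genes outside the set moved likewise in KA against sham. Of 122 other tested genes under 300 bases, 36.9% were called higher and 0 lower, with a median log2 fold change of 0.22, beside 12 higher and 1 lower of 32 respiratory chain genes with a median of 0.16. From 300 to 500 bases the medians were 0.16 for 215 other genes and 0.14 for 20 respiratory chain genes, from 500 to 1000 bases 0.11 and 0.10 (1025 and 18 genes), from 1000 to 2000 bases 0.05 and 0.08 (3240 and 16 genes), and over 2000 bases -0.03 and 0.02 (10049 and 6 genes). Respiratory chain genes over 1000 bases held no called gene, 0 of 16 and 0 of 6, beside 20.7% and 17.8% of the other genes called higher in those ranges. The share of other genes called lower was 2.79% from 300 to 500 bases, 3.80% from 500 to 1000 and 7.07% from 1000 to 2000. It was 18.7% over 2000 bases, the range that holds 6 of the 92 genes. Across genes, which are not independent replicates and share the same libraries, Spearman's rho between length and log2 fold change was -0.35 over the 92 genes and -0.19 over all tested genes. The part of transcript length in the calls was not tested.

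**Figure D4:**
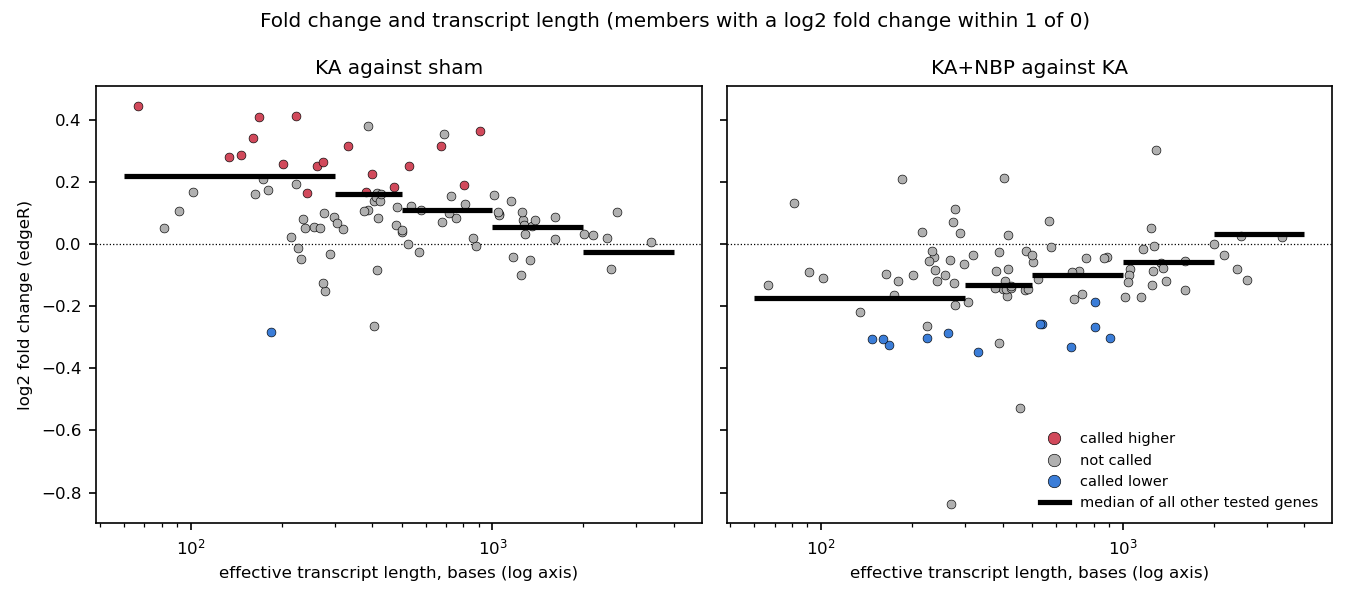
Log2 fold change (edgeR) against effective transcript length (log axis) for the tested respiratory chain genes within 1 of 0, which leaves out Cox7a1, Cox6b2 and Cox4i2 on the left and Cox7a1 on the right; red marks genes called higher, blue called lower, and thick lines the median of all other tested genes in 5 length ranges. The lines run from 0.22 in the shortest to -0.03 in the longest range for KA against sham, and from -0.17 to 0.03 for KA+NBP against KA.

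Regulators known to drive nuclear respiratory genes were examined beside them. Of 16 regulators of mitochondrial biogenesis, 1 was called higher and 2 lower in KA against sham. Ppargc1b, a coactivator, had 42.1, 41.2 and 44.1 CPM in KA+NBP, 54.2, 49.1 and 52.5 CPM in KA and 42.0, 39.5 and 41.4 CPM in sham (log2 fold change KA against sham 0.34 ± 0.06, adjusted p = 0.00531). Gabpb2, a partner of an ETS-family factor, fell by 0.53 on the log2 scale (SE 0.10, adjusted p = 0.00577) and Esrrg, an oestrogen-related receptor, by 0.54 (SE 0.18, adjusted p = 0.0469). Ppargc1a (-0.18 ± 0.06, adjusted p = 0.0512), Nrf1 (-0.11 ± 0.09, adjusted p = 0.383) and Tfam (0.09 ± 0.07, adjusted p = 0.34) were not called. Of 26 tested complex IV assembly factors and 6 complex III assembly factors, 0 were called in KA against sham with edgeR or DESeq2, and 2 and 1 passed an unadjusted p of 0.05.

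Nuclear respiratory genes are textbook targets of nuclear respiratory factor 1 (NRF1), of ETS-family factors, of YY1 and of oestrogen-related receptors (ERR), so the 250 bases before the transcript start were searched on both strands for the motifs of these factors. RefSeq promoters (build GRCm38.p6, another build than that of the expression table) were found for 78 of the 97 genes. The NRF1 motif (GCGCA, any base and GCGC) was present in 14 of 78 genes (17.9%), against 4.23% of all 27025 genes with a promoter, and the ETS motif CCGGAAG in 14 of 78 (17.9%), against 7.83%. YY1's ATGGCGGC was present in 1 of 78 (1.28%, against 1.19%) and the ERR motif TCAAGGTCA in 1 of 78 (1.28%, against 0.422%). No match of a motif shared a base with a match of another in these promoters. Of the 16 genes called higher in KA that had a promoter, 1 held the NRF1 motif and 6 the ETS motif, beside 13 and 8 of the 59 other tested genes. A match describes the letters and shows no binding. The stretches of the 7 risen genes with a match are shown, then that of Ndufb4, which fell and holds 3 NRF1 matches, each 5′ to 3′ on the gene's own strand with the motif matches in capitals:
Atp5k: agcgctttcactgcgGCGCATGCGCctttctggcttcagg
Atp5e: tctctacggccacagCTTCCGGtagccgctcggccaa
Atp5l: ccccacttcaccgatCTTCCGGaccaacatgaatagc
Cox6b1: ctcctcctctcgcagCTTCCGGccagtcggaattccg
Ndufb7: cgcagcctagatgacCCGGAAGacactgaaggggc
Uqcr11: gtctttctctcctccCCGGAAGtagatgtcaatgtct
Uqcrh: gaggagtatgccgcaCTTCCGGcca
Ndufb4: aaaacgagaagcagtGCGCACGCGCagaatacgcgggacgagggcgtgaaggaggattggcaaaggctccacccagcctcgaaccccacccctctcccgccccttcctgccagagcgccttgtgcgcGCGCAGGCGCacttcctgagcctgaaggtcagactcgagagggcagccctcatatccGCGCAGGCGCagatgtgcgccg
In GRCm38.p6 these stretches are Atp5k at chr5:108434425-108434464 on the - strand, Atp5e at chr2:174464182-174464218 on the - strand, Atp5l at chr9:44920933-44920969 on the - strand, Cox6b1 at chr7:30626121-30626157 on the - strand, Ndufb7 at chr8:83566723-83566757 on the + strand, Uqcr11 at chr10:80406866-80406902 on the - strand, Uqcrh at chr4:116075071-116075095 on the - strand and Ndufb4 at chr16:37654369-37654574 on the - strand. The match of Atp5k is to the NRF1 motif and those of the 6 genes after it to the ETS motif, where CTTCCGG is CCGGAAG read on the other strand.

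The KA+NBP against KA comparison asks what differs when NBP is given with KA. It shares the KA libraries with the KA against sham comparison, so an opposite sign in both is partly built in. In KA+NBP, 13 of 92 genes (14.1%) were called lower, against 12.7% of all tested genes, and 0 higher, against 10.0%; at an unadjusted p under 0.05, 22 were lower and 0 higher, beside 20.5% and 17.6% of all tested genes. DESeq2 called 15 lower and 0 higher. The median log2 fold change was -0.10, beside -0.01 over all tested genes, and 79 of 92 values lay below 0. In 35 of 92 genes every KA+NBP library lay below every KA library and in 3 above, while over all tested genes these shares were 20.4% and 16.2%.

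The 13 genes came from all 5 complexes: 4 of 46 in complex I, 2 of 4 in complex II, 1 of 8 in complex III, 2 of 17 in complex IV and 4 of 17 in complex V. In that order the shares are 8.70%, 50%, 12.5%, 11.8% and 23.5%, beside 12.7% of all tested genes. With the values by library given above, Cox7a1 fell by 1.65 on the log2 scale (SE 0.44, adjusted p = 0.0282), Ndufa2 by 0.35 (SE 0.07, adjusted p = 0.00986), Atp5d by 0.33 (SE 0.08, adjusted p = 0.0192) and Uqcr11 by 0.32 (SE 0.08, adjusted p = 0.0178). In all 4 genes KA+NBP lay below KA without overlap and reached into the sham range, except that Uqcr11 stayed above it. Atp5e and Atp5j2 both fell by 0.31, Ndufa1 and Sdhc by 0.30, Ndufb7 by 0.29, Sdhb by 0.27 and Atp5g1 by 0.26. Their adjusted p ran up to 0.0431 for Atp5g1, and Sdhc had the smallest of the set, 0.0093. Of the 9 fits that leave out a library, Atp5g1 was called in 0, Ndufb7 in 3, Cox7a1 in 4 and Ndufa1 in 5.

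Ndufs8 and Cox7a2l were called in KA+NBP against KA without a call in KA against sham. Ndufs8, an iron-sulphur core subunit of complex I, had 42.7, 35.2 and 40.4 CPM in KA+NBP, 48.6, 48.5 and 44.5 CPM in KA and 44.8, 42.1 and 43.2 CPM in sham (log2 fold change KA+NBP against KA -0.26 ± 0.08, adjusted p = 0.0491). Cox7a2l had 100, 102 and 95.9 CPM in KA+NBP, 119, 112 and 109 CPM in KA and 103, 102 and 105 CPM in sham (-0.19 ± 0.06, adjusted p = 0.0435). KA+NBP lay below KA without overlap in both. The call of Ndufs8 was lost in all 9 fits that leave out a library, and that of Cox7a2l in 8, and both were lost with the replicate number as a block.

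Several genes called in KA against sham were not called here. Atp5k stood at -0.13 ± 0.09 (adjusted p = 0.321), Cox6b1 at -0.10 ± 0.06 (adjusted p = 0.255), Uqcrh at -0.13 ± 0.07 (adjusted p = 0.202) and Cox6b2 at -0.84 ± 0.50 (adjusted p = 0.249). Ndufb4 stood at 0.21 ± 0.09 (adjusted p = 0.137) with KA+NBP above KA without overlap. Of the 8 complex I assembly factors, 0 were called with edgeR or DESeq2 and 0 passed an unadjusted p of 0.05, with Ndufaf2 at 0.21 ± 0.11 and Ndufaf6 at 0.30 ± 0.17. With limma on log2 FPKM the direction of Ndufaf6 turned, to -0.080 with a pseudocount of 0.1 and -0.068 with 1. Outside the set, Cycs fell by 0.27 in KA+NBP (SE 0.08, adjusted p = 0.0375), Tmem242 by 0.24 (SE 0.07, adjusted p = 0.0423) and Ppargc1b by 0.29 (SE 0.06, adjusted p = 0.0156), while Gabpb2 rose by 0.53 ± 0.10 (adjusted p = 0.0097).

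These calls rested on few libraries. In place of 13 genes, 8 were called lower without sham replicate 2, 7 without KA replicate 2, 5 without KA replicate 3, 4 without KA+NBP replicate 1 and 5 without KA+NBP replicate 3, and a fit of the 6 KA+NBP and KA libraries alone called 1, Ndufa2. In each of these fits the share of all tested genes called lower was also below the 12.7% of the main fit. It was 5.17% without KA+NBP replicate 1 and 4.10% in the fit of 6 libraries. Without KA+NBP replicate 2, the library that stands apart, 13 were called lower, 11 of them among the 13, and 1 higher, Ndufa5. That fit called 23.6% of all tested genes lower and 19.2% higher, beside 12.7% and 10.0% in the main fit. The count of the set thus stayed at 13 while the share over all tested genes rose. Ndufa2 was called in all 17 settings. By transcript length, other tested genes under 300 bases had a median log2 fold change of -0.17 and those over 2000 bases of 0.03 in this comparison. Of these other genes, 0.82% were called higher under 300 bases, 1.86% from 300 to 500 and 1.66% from 500 to 1000. The share was 4.23% from 1000 to 2000 bases and 13.1% over 2000 bases. The 10.0% called higher over all tested genes thus rests mostly on long genes.

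**Figure D5:**
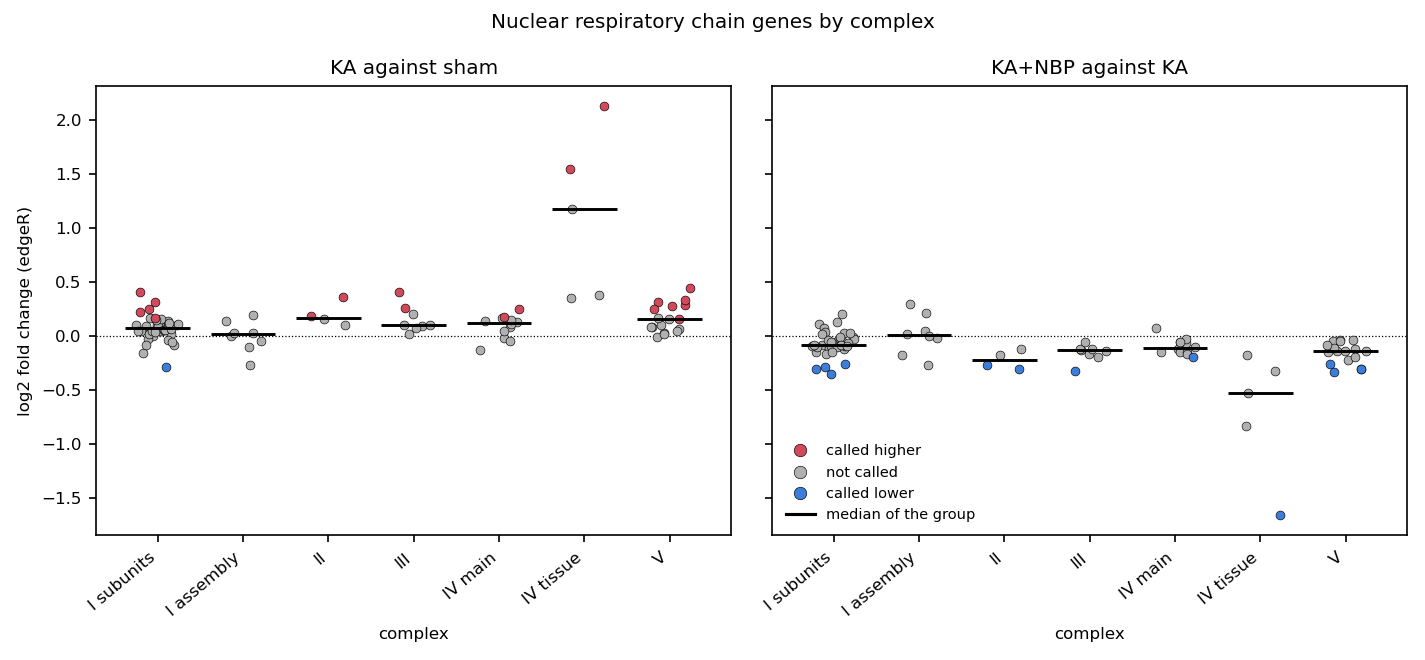
Log2 fold change (edgeR) of each tested gene by complex, for KA against sham on the left and KA+NBP against KA on the right, with red for genes called higher, blue for genes called lower, grey for the rest and a bar at the median of each class. The complex V median is 0.16 on the left and -0.13 on the right, the assembly factors of complex I lie at 0.02 and 0.01, and Cox7a1 is the extreme gene in both.

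In the KA+NBP against sham comparison 0 of 92 genes were called in either direction with edgeR, as were 0.0% of all tested genes higher and 0.0% lower. DESeq2 called 0 of the 92 genes as well. At an unadjusted p under 0.05, 2 of the 92 genes were higher and 0 lower, beside 1.23% and 0.447% of all tested genes. These were Atp5k, at a log2 fold change of 0.31 ± 0.09, and Cox6b1, at 0.16 ± 0.06, and for both every KA+NBP library lay above every sham library. Sdhc, Uqcr11 and Ndufab1 were also above sham in each KA+NBP library, and Uqcrb, Cox7a2l and Atp5h below it, in all 5 and 3 genes of 92, against 3.29% and 3.08% of all tested genes. The median log2 fold change was 0.00, and 87 of 92 genes lay within 0.25 of 0. The SE of a log2 fold change had a median of 0.07 in this comparison, and a missing call does not show that KA+NBP and sham are alike.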

How the data were processed

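Total RNA of mouse hippocampus was sequenced in 9 libraries, 3 each of KA+NBP, KA and sham. The authors deposited estimated counts for 18474 protein-coding genes; 5.65 to 6.61% of a library's values hold fractions, from reads that match several genes. The FPKM values that the authors deposited, scaled for length and depth, gave effective lengths and 2 alternative fits. The TPM values they deposited gave levels between genes and entered no test. The submitters' processing notes name Bowtie2, RSEM 1.3.1, DESeq2 1.4.5 and GRCm39, and no role for each.

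Counts were rounded and fitted with edgeR 4.0.16 in R 4.3.3 (filterByExpr, TMM factors, common dispersion 0.021) in 1 model of 9 libraries with a mean per group. Comparisons used the quasi-likelihood F test, and p-values were adjusted by the Benjamini-Hochberg method across 14752 genes. The SE is the absolute log2 fold change divided by the square root of F. Library totals were 15699251 to 16374637 estimated counts, and bounds from a count of 0 rest on 3 counts and cover counting error only. No libraries held identical values.

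The members and lists were chosen with earlier results of these data known. The genes named are a panel of core subunits and isoform pairs, the 5 largest called rises and falls per comparison without overlap and with at least 1 CPM, the 3 smallest p per complex, the untested members and up to 4 genes of each list; other called genes are named to complete the counts. Atpif1, the ATP synthase inhibitor, is in the panel but outside the symbol rule and is not used here.

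Deviations from the group means of same-numbered KA+NBP and sham libraries correlated at 0.301, 0.332 and 0.126, those of pairs with a KA library at -0.0450 to 0.0447. Differently numbered KA+NBP and sham libraries ran from -0.310 to 0.192, and the upper value exceeds the 0.126 of the pair numbered 3. The labels name no shared batch, and these values do not show a pairing by number. The alternatives were RLE factors, library totals alone, no low-count filter, the 6 libraries compared, the replicate number as a block, DESeq2 1.42.0, limma 3.58.1 on log2 FPKM with a pseudocount of 0.1 or 1, and leaving out each library. The fit was tested on simulated data. Values of 1 gene of the set are not reported here.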

Additional observations from a re-analysis of the deposited data

How the results depend on the processing

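Depth limits the tissue isoforms of complex IV most. The 4 tested ones had 4 to 63 counts per gene and library, and Cox7b2 and Cox8b had too few counts to be tested. With each of the 9 libraries left out in turn, KA against sham gave 8 to 23 genes higher and 0 to 1 lower, with a median log2 fold change of 0.061 to 0.12; KA+NBP against KA gave 0 to 1 higher and 4 to 13 lower, with a median of -0.12 to -0.078; and KA+NBP against sham gave 0. Over all tested genes, the share called higher in KA against sham ran from 10.9 to 24.8% in these fits. The share called lower in KA+NBP against KA ran from 5.17 to 23.6%. In KA against sham, library totals alone and the replicate block each gave 0 genes lower. The block changed no other count by over 1.5 times and no call in KA+NBP against sham, with 15 genes higher in KA against sham and 11 lower in KA+NBP against KA. The median in KA against sham was 0.14 with library totals alone and with limma at either pseudocount, and in KA+NBP against KA -0.15 with limma at either. A fit of the 6 libraries compared called 1 gene lower in KA+NBP against KA, beside 4.10% of all tested genes. In KA against sham such a fit called 22 higher, beside 24.3%. The cause of these shifts was not tested. For the single genes named, 1655 values under the alternatives kept direction and side of the threshold, 130 lost a call, 31 gained one and 36 changed sign. Some genes changed sign. In KA against sham, Atp5c1 stood at 0.029 with library totals and 0.038 and 0.037 with limma, and Ndufa4 at 0.021, 0.026 and 0.026. In KA+NBP against KA, Ndufaf6 stood at -0.080 and -0.068 with limma, and Ndufv2 at 0.000264 with RLE factors, 0.00165 with 6 libraries and 3.31e-04 with DESeq2. In KA+NBP against sham, Sdha stood at 3.59e-04 with library totals. With a library left out, KA against sham ran from -0.027 to 0.045 for Atp5a1, -0.053 to 0.019 for Atp5c1, -0.058 to 0.017 for Ndufa4, -7.34e-04 to 0.089 for Ndufs7, -0.0071 to 0.12 for Ndufv2 and -0.030 to 0.034 for Uqcrc2. KA+NBP against KA ran from -0.066 to 0.0081 for Atp5a1, -0.083 to 0.0093 for Atp5c1, -0.13 to 0.026 for Cox6a1, -0.55 to 0.0039 for Cox6a2, -0.0062 to 0.049 for Ndufs1, -0.13 to 0.059 for Ndufs7, -0.12 to 0.011 for Ndufv1 and -0.069 to 0.058 for Ndufv2. KA+NBP against sham ran from -0.010 to 1.35 for Cox6b2, -0.13 to 0.054 for Ndufaf3 and -0.035 to 0.022 for Sdha.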
